A study of Mus musculus with 12 samples.

Results

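The circadian clock genes described here are Arntl, Clock, Per1, Per2, Per3, Cry1, Cry2, Nr1d1, Nr1d2 and Dbp, 10 of the 49315 genes in a table of RNA-seq counts from mouse epididymal white adipose tissue (eWAT). They were chosen by symbol as the core loop of the clock and its output factor Dbp, not by their values, and each symbol matched a single gene of the table. All 10 passed the filter on low counts that left 18702 genes for testing.

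The clock is a feedback loop of transcription that turns over about once a day in nearly every cell, fat cells included. ARNTL (BMAL1) and CLOCK pair to switch on the Per and Cry genes, Nr1d1, Nr1d2 and Dbp, whose promoters and enhancers carry E-boxes, and the PER and CRY proteins then block the pair. NR1D1 and NR1D2 (REV-ERBα and REV-ERBβ) compete with the ROR factors at ROR elements to repress Arntl, and DBP acts at D-boxes, so that in animals kept on a light cycle the transcripts of Arntl and Dbp peak at nearly opposite times of day.

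The RNA came from 12 male mice fed a high-fat diet (HFD, 60% of calories from fat) for 12 weeks, with 3 mice and 1 library per mouse in each of 4 groups. Flox mice (Mir181a2b2 flox/flox) carry the locus flanked by loxP sites and intact, and KO mice (Mir181a2b2 -/-) lack the locus in the whole body, so that the deletion is not limited to fat or endothelium. Either genotype received weekly intraperitoneal injections of vehicle or of methotrexate (MTX, an antifolate) at 1 mg/kg, giving the groups flox vehicle, KO vehicle, flox MTX and KO MTX. Mice were littermates matched by age and cage, and the age, the light schedule, the feeding state and the hour at which the tissue was taken are not given in the sources used here. The phase of the clock can therefore be described only by how the members order the libraries relative to each other, and the hour of collection and the group cannot be told apart. Replicate numbers name mice and are not stated to pair them, so mice were treated as unpaired. Each fold change between a pair of groups rests on 3 mice per group, with its spread estimated from all 12 libraries. Effects averaged over genotype or treatment, their interaction and the correlations rest on all 12 mice.

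Libraries held 19495310 to 23976469 counts, with a median of 21824170.5. Values are counts scaled to a common library size (CPM, reads in 1000000 counted reads), adjusted with factors from the trimmed mean of M values (TMM), and the members had 153 to 3462 counts in a library, so that each was well above the 0.125 to 0.154 CPM that a count of 0 would allow. Summed marker lists are given as CPM of all counts, without TMM factors. The 3 flox vehicle libraries stand apart from the other 9. Markers of epididymis summed to 1493 to 12619 CPM in them, against 5.69 to 16.0 in KO vehicle, 5.36 to 423 in flox MTX and 1.68 to 13.2 in KO MTX libraries, and germ cell markers of testis summed to 207 to 593 CPM, against 0.277 to 12.2 CPM in the other 9 libraries, with 10 of 10 of the germ cell markers above 3 counts in each flox vehicle library and 0 to 9 of 10 elsewhere. Crisp1, a secreted protein of the epididymis, had 25221 to 233923 counts in flox vehicle libraries and at most 8461 elsewhere, and Prm1, a sperm protamine, 531 to 1405 against at most 25. The tissue label was checked with adipocyte markers, of which 12 of 12 were detected in every library, and macrophage markers, 12 of 12 detected, summed to 473 to 761 CPM in flox vehicle, 3710 to 8255 in KO vehicle, 411 to 3426 in flox MTX and 5119 to 9230 in KO MTX libraries. In bulk tissue, fewer cells of a type and less RNA per cell cannot be told apart. The deletion itself could not be checked, because the precursors Mir181a-2 and Mir181b-2 had 0 counts in every library apart from flox MTX replicate 4, which had 2 counts of the former.

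Promoter sequences are shown for the members that passed a test between groups and have an entry in the RefSeq table of mouse promoters (GRCm38.p6), Per1, Per3 and Cry2, and for Arntl, the activator they are set against. Each sequence runs from 250 bases before to 50 bases after a start site, and capitals mark an E-box (CACGTG), an E′-box (CACGTT or AACGTG), a D-box (TTATGTAA) or a ROR half-site (AGGTCA or TGACCT), searched on both strands.
Per1, chr11:69098699-69098998, plus strand: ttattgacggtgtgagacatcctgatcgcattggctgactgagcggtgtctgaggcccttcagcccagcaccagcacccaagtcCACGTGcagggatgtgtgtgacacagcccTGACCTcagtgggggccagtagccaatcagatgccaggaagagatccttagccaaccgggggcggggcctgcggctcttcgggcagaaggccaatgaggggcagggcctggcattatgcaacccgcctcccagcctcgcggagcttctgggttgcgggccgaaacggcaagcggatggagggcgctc
Per3, chr4:151044616-151044915, minus strand: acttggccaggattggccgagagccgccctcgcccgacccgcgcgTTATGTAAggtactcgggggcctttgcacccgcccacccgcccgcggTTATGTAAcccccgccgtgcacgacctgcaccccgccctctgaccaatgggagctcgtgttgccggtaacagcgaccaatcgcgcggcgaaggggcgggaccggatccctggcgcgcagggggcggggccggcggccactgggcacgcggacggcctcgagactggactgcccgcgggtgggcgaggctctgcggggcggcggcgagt
Cry2, chr2:92434020-92434319, minus strand: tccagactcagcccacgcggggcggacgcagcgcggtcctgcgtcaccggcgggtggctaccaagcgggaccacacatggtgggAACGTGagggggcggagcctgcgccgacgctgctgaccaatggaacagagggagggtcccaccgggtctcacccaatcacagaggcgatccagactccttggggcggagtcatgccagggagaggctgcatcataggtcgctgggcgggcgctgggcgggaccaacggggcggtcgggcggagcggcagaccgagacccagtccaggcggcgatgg
Arntl, chr7:113207261-113207560, plus strand: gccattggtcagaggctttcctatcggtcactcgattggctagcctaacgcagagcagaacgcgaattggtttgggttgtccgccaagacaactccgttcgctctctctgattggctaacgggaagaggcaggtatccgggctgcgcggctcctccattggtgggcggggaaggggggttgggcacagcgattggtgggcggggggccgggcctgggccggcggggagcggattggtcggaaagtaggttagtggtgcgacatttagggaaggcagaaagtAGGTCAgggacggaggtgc
The Per1 window shown holds an E-box 166 bases before the start and a ROR half-site 137 bases before it. The window of another Per1 start site had no match to the 4 motifs. Per3 has D-boxes at 205 and 158 bases before its start, Cry2 an E′-box at 166 bases before, and the Arntl window a ROR half-site at 31 bases after the start, while the window of its other start site had no match to the 4 motifs. Among 13 windows of 9 members, 2 held an E-box, 3 an E′-box, 1 a D-box and 4 a ROR half-site, against 7.15%, 4.69%, 0.935% and 16.3% of all 32817 promoter windows of that length. The E′-box was searched as CACGTT on both strands, which overlaps neither the E-box nor the other motifs. These matches describe letters in a window and not sites of binding.

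The 2 microRNAs at the deleted locus are shown with their seed, bases 2 to 8, in capitals, because the genotype is defined by their loss.
miR-181a-5p, chr2:38852741-38852763, plus strand: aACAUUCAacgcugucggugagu
miR-181b-5p, chr2:38853845-38853868, plus strand: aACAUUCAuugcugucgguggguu
Both share the seed ACAUUCA, whose match on a transcript is TGAATGT. In the longest 3′ UTR of GENCODE release M21, the match occurred in 6 of the 10 members, 2 times in Clock and Nr1d2 and 1 time in Per2, Per3, Cry1 and Cry2, and not in Arntl, Per1, Nr1d1 or Dbp. It occurred in 17.4% of the 15368 tested genes with a 3′ UTR, whose median UTR was 1084 bases long against 1346 for the members. The matches in the members that passed a test are given with the bases around them.
Per2, chr1:91416361-91416367, minus strand: ctcttctctctTGAATGTttaccatcagcg
Per3, chr4:151003895-151003901, minus strand: tgttgtagactTGAATGTctacataaatat
Cry2, chr2:92405636-92405642, minus strand: tctcatgatccTGAATGTtgcctgcgctgg
Mature microRNAs were not measured in these libraries, and a seed match is a description of the sequence only.

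Per kilobase of exon, Nr1d1 was the most abundant member and Arntl the least. Mean levels over the 12 libraries were 29.9 ± 7.77 CPM per kilobase (SD, n = 12) for Nr1d1, 19.2 ± 5.65 for Per1, 12.9 ± 5.03 for Dbp, 10.2 ± 1.57 for Nr1d2 and 8.22 ± 2.17 for Cry2. Lower on this scale were Clock at 5.31 ± 1.53, Per2 at 4.36 ± 1.59, Per3 at 4.08 ± 1.19, Cry1 at 2.66 ± 0.398 and Arntl at 1.67 ± 0.412 CPM per kilobase. The ranges of all neighbours in this order overlapped, and the order was loosest at Clock over Per2 and Per2 over Per3, each of which held in 7 of 12 libraries, and at Dbp over Nr1d2 and Nr1d2 over Cry2, each in 8 of 12. Cry1 exceeded Arntl in 12 of 12 libraries, and the remaining steps held in 11.

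Dbp and Per2 varied most between mice. The highest library held 6.54 times the Dbp of the lowest and 4.17 times the Per2, whereas the ratio was 1.64 for Cry1 and 1.72 for Nr1d2. Within groups, the SD of log2 CPM was 0.59 for Dbp and 0.38 for Per1 and Per2, against a median of 0.25 over 11852 genes of at least 5 CPM, and it was 0.25 for Arntl and 0.19 for Cry1. Variation within groups made up 26.8% of the variance of Per3, 30.2% of that of Per2 and 37.2% of that of Arntl, but 64.5% for Nr1d1 and 68.5% for Nr1d2. Flox MTX replicate 4 stood apart among the members: it had the lowest Per2, Nr1d2 and Dbp of all 12 libraries and the highest Arntl, Clock and Cry1. These ranks are of TMM-scaled values. That library had the lowest TMM factor, 0.821, and its 5 most abundant genes held 12.5% of its counts, the largest such share. The part of this scaling in its ranks was not tested. KO MTX replicate 3 had the lowest Clock, Per3 and Cry2 and the highest Nr1d2.

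**Figure D1:**
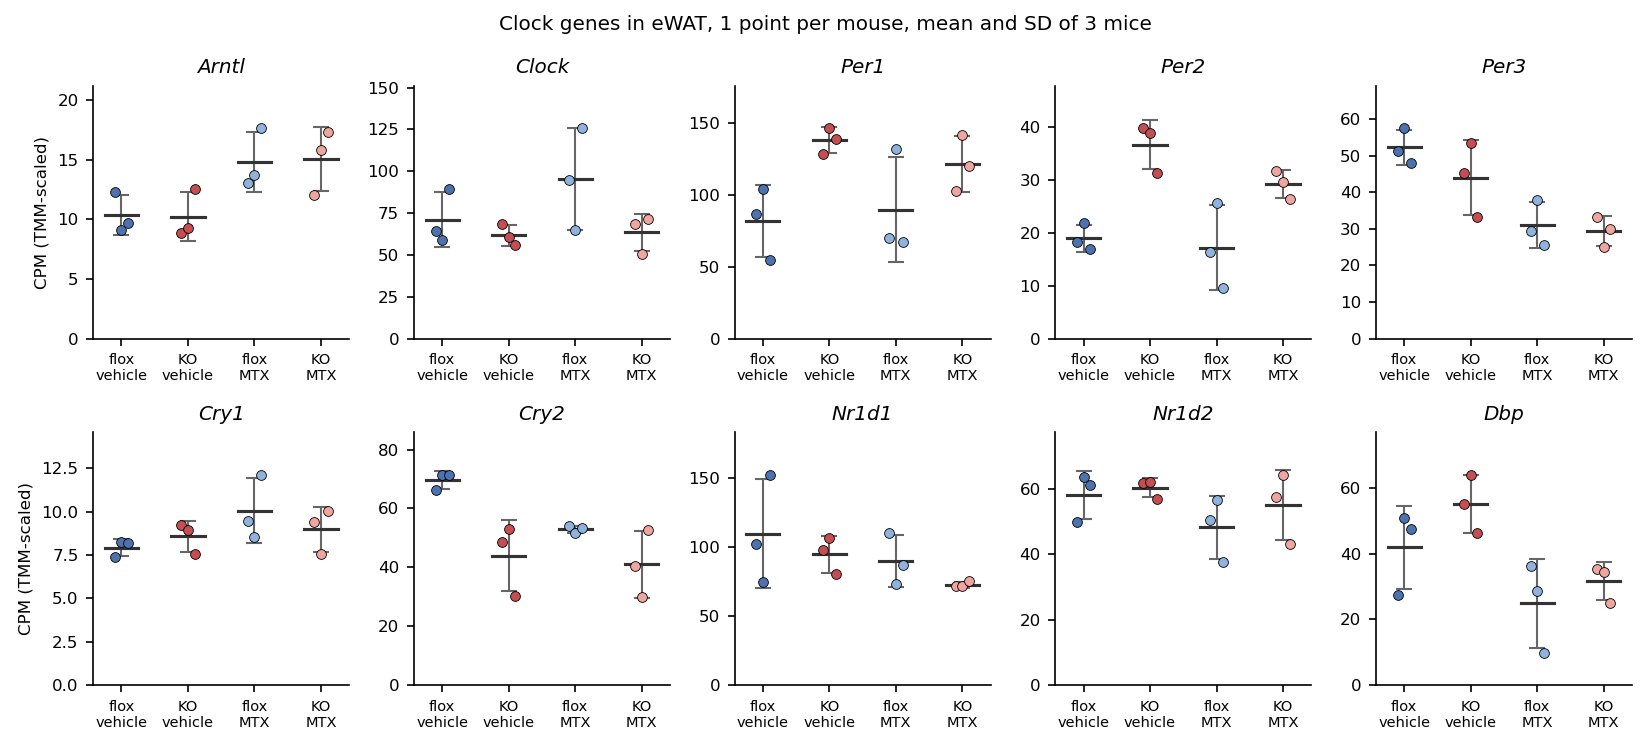
CPM of the 10 clock genes in each of the 12 mice, 1 panel per gene, with the group on the horizontal axis and CPM from 0 on the vertical axis. Points are mice, and bars are the mean and SD of 3 mice. Per2 was 31.4 to 39.9 CPM in KO vehicle and 16.9 to 21.9 in flox vehicle mice, and the flox MTX point far below the others for Dbp, at 9.82 CPM, is replicate 4.

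Changes were tested with edgeR's quasi-likelihood F-test over the 18702 genes, with p-values adjusted by the Benjamini-Hochberg method, and calling a gene took an adjusted p under 0.1 together with a change of 1.5-fold or more. Log2 fold changes are given with their SE. For each pair of groups, an exact permutation test on 3 mice against 3 (two-sided) cannot give a p below 0.1, and groups that do not overlap reach that value. The comparisons of KO with flox and of MTX with vehicle share groups, so their values are given side by side.

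Arntl, the partner of CLOCK, ranged from 8.82 to 12.6 CPM in vehicle mice and from 12.0 to 17.6 CPM in mice given MTX. In vehicle mice its CPM was 12.2, 9.09 and 9.65 in flox replicates 1, 3 and 4, and 8.82, 9.27 and 12.6 in KO replicates 1, 2 and 3. Values below are listed in this order of replicates. With MTX it stood at 13.0, 13.7 and 17.6 CPM in flox replicates 1, 2 and 4, and at 12.0, 15.8 and 17.3 in KO replicates 2, 3 and 4. All flox MTX mice were above all flox vehicle mice, while in KO mice the groups overlapped at replicate 3 of KO vehicle and replicate 2 of KO MTX. The difference of MTX from vehicle was 0.52 ± 0.22 in flox (adjusted p = 0.116) and 0.56 ± 0.22 in KO mice (adjusted p = 0.525), and neither passed. Averaged over both genotypes it was 0.54 ± 0.15 with an adjusted p of 0.0489, a 1.45-fold difference that stayed under the limit of 1.5. KO and flox mice had nearly equal Arntl, with log2 differences of -0.01 (95% interval -0.49 to 0.46) under vehicle and 0.03 (-0.44 to 0.50) under MTX.

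Clock, which encodes the other subunit of the activator, followed Arntl little across the libraries (r = 0.26, permutation p = 0.416, adjusted p = 0.511, rho = 0.23, permutation p = 0.472, adjusted p = 0.606). It stood at 64.3, 59.2 and 89.7 CPM in flox vehicle and at 68.5, 60.6 and 56.1 in KO vehicle mice. It stood at 94.9, 64.9 and 126 CPM in flox MTX and at 68.4, 50.6 and 71.4 in KO MTX mice. The highest values were those of flox MTX replicates 4 and 1, and all pairs of groups overlapped. Under MTX, Clock differed between KO and flox by -0.59 ± 0.24 (adjusted p = 0.173), and this value moved with single mice: it was -0.80 and called without flox MTX replicate 2, and -0.33 (adjusted p = 0.527) without flox MTX replicate 4.

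Per1, an E-box target that also responds to glucocorticoids, was higher in KO mice under vehicle. It stood at 87.1, 104 and 54.9 CPM in flox vehicle and at 129, 147 and 139 in KO vehicle mice, with no overlap. It stood at 70.3, 132 and 67.1 CPM in flox MTX and at 103, 142 and 120 in KO MTX mice, where flox MTX replicate 2 lay within the KO range. Per1 rose 1.68-fold in KO vehicle mice (0.75 ± 0.28, 95% interval 0.13 to 1.37, adjusted p = 0.0686), and it was called in 13 of 19 alternative fits. The call was lost with the replicate number as a block (0.61, adjusted p = 0.126), when counts were scaled by library size alone (0.74, adjusted p = 0.127), and without flox vehicle replicate 1 or 4 or KO vehicle replicate 2 or 3, with adjusted p of 0.119 to 0.173. The smallest of these differences was 0.54, without flox vehicle replicate 4. Under MTX the difference was 0.44 ± 0.28 (adjusted p = 0.357).

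Per2, a repressor induced like Per1, separated the genotypes under both treatments. It stood at 18.3, 21.9 and 16.9 CPM in flox vehicle and at 39.9, 38.9 and 31.4 in KO vehicle mice. It stood at 16.3, 25.7 and 9.57 CPM in flox MTX and at 31.7, 29.6 and 26.5 in KO MTX mice. Every KO mouse was above every flox mouse, with the smallest gap between KO MTX replicate 4 and flox MTX replicate 2. Per2 rose 1.93-fold in KO vehicle mice (0.95 ± 0.28, 95% interval 0.33 to 1.56, adjusted p = 0.0266) and was called in 19 of 19 alternative fits. Under MTX the difference was 0.76 ± 0.28 with an adjusted p of 0.141, and it was called by DESeq2. MTX differed from vehicle by -0.14 ± 0.28 in flox (adjusted p = 0.749) and by -0.33 ± 0.28 in KO mice (adjusted p = 0.817).

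Per3, a PER protein dispensable for the core rhythm, was lower with MTX in flox mice. It stood at 51.5, 57.6 and 48.1 CPM in flox vehicle and at 29.4, 38.0 and 25.7 in flox MTX mice, with no overlap. It stood at 45.4, 53.6 and 33.2 CPM in KO vehicle and at 33.4, 25.05 and 30.02 in KO MTX mice, where KO vehicle replicate 3 fell just below KO MTX replicate 2. Per3 fell 1.69-fold in flox mice (-0.75 ± 0.20, 95% interval -1.19 to -0.32, adjusted p = 0.0248) and was called in 19 of 19 alternative fits. In KO mice the difference was -0.58 ± 0.20 with an adjusted p of 0.455, and the difference between the genotypes in this response was 0.17 ± 0.28 (adjusted p = 0.787).

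Cry1, the later of the CRY repressors, was the steadiest member. It stood at 7.38, 8.22 and 8.17 CPM in flox vehicle, 9.22, 8.94 and 7.54 in KO vehicle, 9.45, 8.54 and 12.1 in flox MTX and 9.40, 7.54 and 10.01 in KO MTX mice. The flox MTX mice were all above the flox vehicle mice, by 0.34 ± 0.19 on the log2 scale (adjusted p = 0.239). The other pairs of groups overlapped.

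Cry2, its paralog, was highest in flox vehicle mice, the group whose libraries carried epididymis and testis markers. It stood at 66.3, 71.5 and 71.5 CPM in flox vehicle and at 48.6, 53.0 and 30.4 in KO vehicle mice, with no overlap. It stood at 54.0, 51.7 and 53.3 CPM in flox MTX and at 40.4, 30.03 and 52.7 in KO MTX mice. Cry2 fell 1.58-fold in KO vehicle mice (-0.66 ± 0.22, 95% interval -1.15 to -0.18, adjusted p = 0.0430). The call was lost without KO vehicle replicate 3, which left -0.45 with an adjusted p of 0.150. Under MTX, KO and flox mice differed by -0.37 ± 0.22 (adjusted p = 0.319), and in flox mice MTX differed from vehicle by -0.40 ± 0.22 (adjusted p = 0.228) with no overlap. D930015M05Rik, a transcript on the opposite strand, shares 295 of the 6320 exon bases of Cry2. It had 272 counts over all 12 libraries, against 649 to 1818 counts of Cry2 in each library. Reads on the shared bases could not be set apart because the strand setting of the counting is not stated.

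Nr1d1 and Nr1d2, the repressors of Arntl, did not pass any comparison. Nr1d1 stood at 102, 74.6 and 153 CPM in flox vehicle, 97.9, 106 and 80.2 in KO vehicle, 110, 73.0 and 86.9 in flox MTX and 71.5, 71.7 and 75.4 in KO MTX mice. The KO MTX mice lay close together and all below the KO vehicle mice, by -0.38 ± 0.24 (adjusted p = 0.743). Nr1d2 stood at 49.8, 63.4 and 60.9 CPM in flox vehicle, 61.8, 62.1 and 56.9 in KO vehicle, 50.5, 56.4 and 37.5 in flox MTX and 57.5, 64.3 and 43.1 in KO MTX mice. Its groups overlapped in all 4 comparisons, and flox MTX replicate 4 was the lowest. Nr1d1 shares 263 of its 3077 exon bases with Thra on the opposite strand, and reads on the shared bases cannot be told apart without the strand.

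Dbp, a PAR bZIP activator and the output with the widest daily swing in most tissues, ranged from 27.5 to 64.2 CPM in vehicle mice and from 9.82 to 36.2 CPM in mice given MTX. It stood at 27.5, 51.1 and 47.5 CPM in flox vehicle and at 36.2, 28.7 and 9.82 in flox MTX mice, which overlapped through flox vehicle replicate 1. It stood at 55.3, 64.2 and 46.4 CPM in KO vehicle and at 35.5, 34.5 and 24.9 in KO MTX mice, with no overlap. The differences of MTX from vehicle were -0.75 ± 0.39 in flox (adjusted p = 0.1997) and -0.81 ± 0.39 in KO mice (adjusted p = 0.654), and neither passed. The value in flox mice was -0.36 (adjusted p = 0.386) without flox MTX replicate 4 and -1.11, called, without flox MTX replicate 1. Averaged over both genotypes, Dbp fell 1.71-fold (-0.78 ± 0.28, adjusted p = 0.0919), but the call held in 7 of 18 alternative fits. Without flox MTX replicate 4 the difference was -0.59 and still called. The call was lost without flox vehicle replicate 3 or 4, flox MTX replicate 2, or any single KO mouse. It was also lost with the replicate block and with a minimum of 10 counts per library. Dbp shares 539 exon bases with Sphk2 on the opposite strand.

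**Figure D2:**
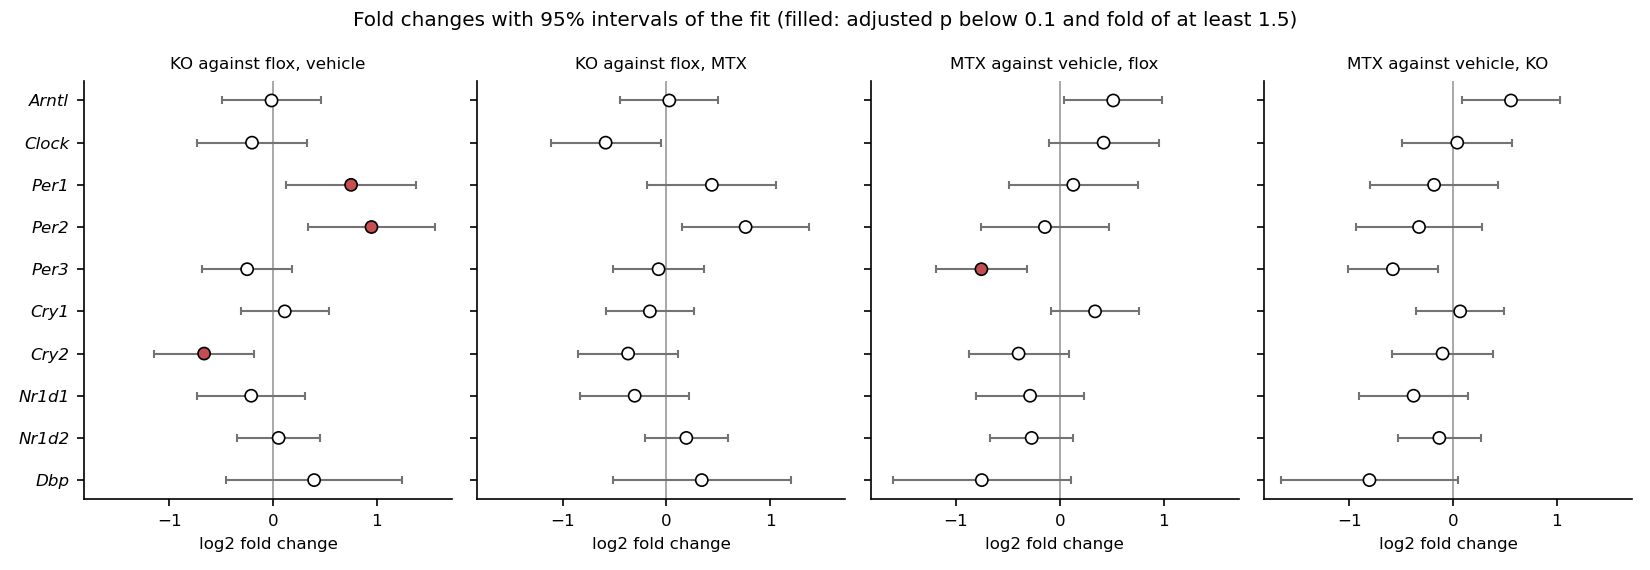
Log2 fold changes of the 10 clock genes in the 4 comparisons of groups, with 95% intervals from the edgeR fit, and filled points for called genes. Filled points are Per1, Per2 and Cry2 for KO against flox under vehicle and Per3 for MTX against vehicle in flox mice, and every point of the other panels is open.

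In KO against flox mice under vehicle, 3 of 10 members were called, against 31.7% of all tested genes. Per1 and Per2 were the 2 called higher (background 13.9%) and Cry2 the 1 called lower (background 17.8%). Those 3 were also the members whose groups did not overlap, a property of 48.1% of all tested genes, so that the members' share was close to the background for calls and below it for overlap. The other 7 differed by -0.25 to 0.40 on the log2 scale, with adjusted p from 0.367 to 0.968, and the median over the 10 was 0.02 against -0.06 for all genes tested. The flox vehicle libraries in this comparison held the epididymis and testis markers given above, and their part in these differences was not tested.

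Between KO and flox mice under MTX, edgeR called 0 of 10 members and 0% of all genes. At an unadjusted p below 0.05 it had 2, Clock and Per2 (24.5% of all genes), and DESeq2 called 1, Per2 (14.8%). Per2 was also the only member whose groups did not overlap (26.8% of all genes). The count depended on flox MTX replicate 2, without which Clock, Per1 and Per2 were called. The median over the members was -0.02, against -0.05 for all genes tested.

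With MTX in flox mice, 1 of 10 members was called, Per3, which fell, against 24.2% of all genes called and 16.1% called lower. Arntl, Per3, Cry1 and Cry2 had groups that did not overlap, 4 of 10 against 28.3% of all genes. The members' median was -0.21, against 0.05 for all genes tested. With MTX in KO mice, the comparison that holds no flox vehicle library, edgeR called 0 of 10 members and 0% of all genes. Arntl and Per3 were the 2 members at an unadjusted p below 0.05 (7.97% of all genes), DESeq2 called 0 members (1.5%), and the groups of Nr1d1 and Dbp, 2 of 10, did not overlap (20.7% of all genes). The members' median there was -0.16, against -0.01.

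No difference in the response to MTX between the genotypes was detected for a member. In edgeR's test of the interaction of genotype and MTX, 0 of 10 were called (0.989% of all genes), 0 had an unadjusted p below 0.05 (15% of all genes), and DESeq2 called 0 (6.67%). The 95% interval of the interaction was -1.26 to 1.15 on the log2 scale for Dbp and -0.44 to 0.79 for Per3. Effects averaged over the other factor were added after these values were seen. For MTX averaged over both genotypes, Per3 (-0.67 ± 0.14, adjusted p = 0.0183) and Dbp were the 2 called, both lower, against 14.5% of all genes called and 10.1% called lower. For KO averaged over both treatments, Per1 (0.59 ± 0.20, adjusted p = 0.0423) and Per2 (0.86 ± 0.20, adjusted p = 0.00873) were the 2 called, both higher, against 28.5% of all genes called and 12.5% called higher. Cry2 differed by -0.52 ± 0.16 (adjusted p = 0.0273) and Clock by -0.39 ± 0.17 (adjusted p = 0.0981) in that average, both under the fold limit.

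Phase relations among the members were described by Pearson's r and Spearman's rho of log2 CPM over the 12 libraries, with permutation tests of 100000 resamples (two-sided) adjusted over the 45 pairs. For 8 pairs the adjusted p of r was below 0.05, 3 positive and 5 negative. Nr1d1 and Cry2 were in none of them. In the same permutation test, Nr1d1 had r = 0.25 with Dbp (adjusted p = 0.511) and 0.07 with Nr1d2 (adjusted p = 0.920). With Arntl, r was -0.45 for Nr1d1 (adjusted p = 0.279) and -0.04 for Per1 (adjusted p = 0.947). The members thus did not all order the libraries alike. All 8 kept their sign when group means were removed, as did 37 of all 45 pairs. All 8 also kept it when the 3 flox vehicle libraries were left out. With group means removed, none of the 45 pairs had an adjusted p below 0.05 in the exact permutation test within groups.

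Arntl ran against Dbp, the pair that marks opposite ends of the cycle. The correlation was r = -0.82 (permutation p = 0.00014, adjusted p = 0.0063) and rho = -0.87 (permutation p = 0.0005, adjusted p = 0.0225). It was -0.82 again without the 2 libraries farthest in Arntl, flox MTX replicate 4 and KO vehicle replicate 1, and -0.82 without the flox vehicle libraries. With counts scaled by library size alone, r was -0.61 (permutation test, adjusted p = 0.0930). With group means removed r was -0.77 (exact permutation p = 0.00231, adjusted p = 0.0868), the same direction within groups but not past the threshold after adjustment. Relative to each gene's mean over the 12 libraries, log2 Dbp minus log2 Arntl was above 0 in 5 of 6 vehicle libraries, from -0.35 to 1.27, and in 1 of 6 MTX libraries, from -2.35 to 0.04. Flox vehicle replicate 1, at -0.35, was the vehicle library on the MTX side, and flox MTX replicate 4, at -2.35, lay farthest out.

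**Figure D3:**
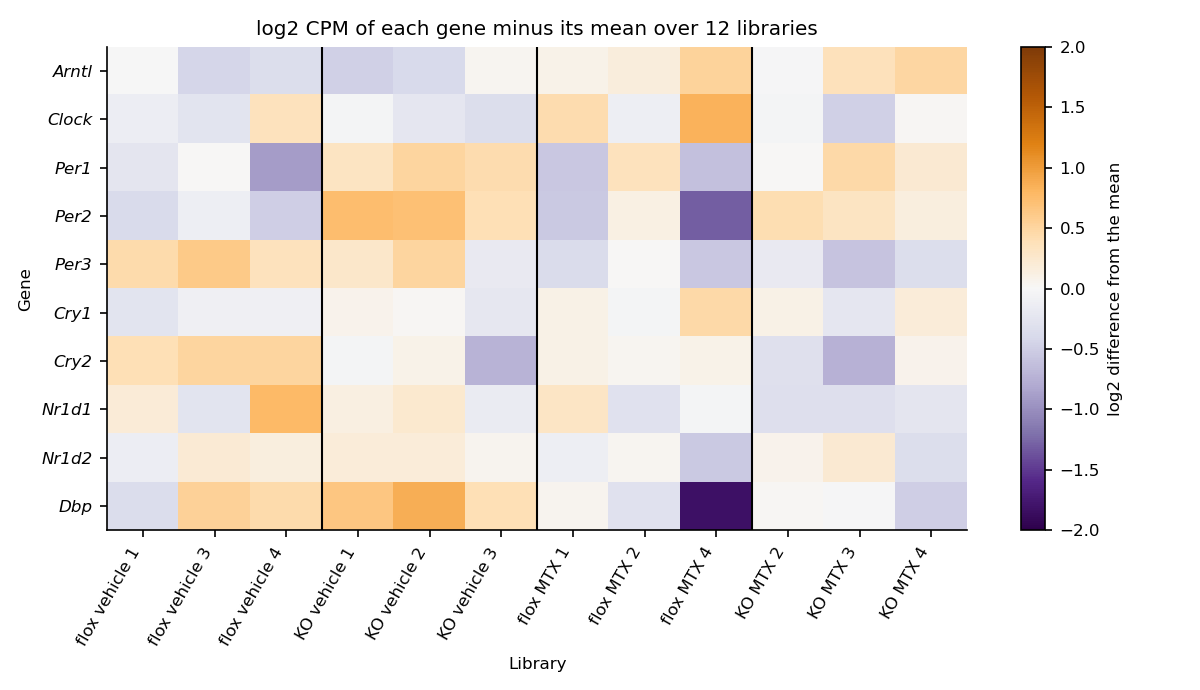
Log2 CPM of each member minus its mean over the 12 libraries, shown as colour, with the members on the vertical axis and the libraries in group order on the horizontal axis. Arntl is highest and Dbp lowest in flox MTX replicate 4, and both lie near their means in flox MTX replicate 1. Flox MTX replicate 4 also has the lowest Per2 and the highest Clock.

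Per3 and Nr1d2 also ran against Arntl. Per3 ran against Arntl with r = -0.86 (permutation p = 0.00051, adjusted p = 0.00765) and rho = -0.81 (permutation p = 0.00192, adjusted p = 0.0432), and r was -0.84 without the 2 farthest libraries and -0.66 with group means removed. Nr1d2 ran with Dbp with r = 0.88 (permutation p = 0.00031, adjusted p = 0.00697) and rho = 0.74 (permutation p = 0.00758, adjusted p = 0.0629), which became 0.63 without the 2 farthest libraries and 0.84 with group means removed. Nr1d2 ran against Arntl with r = -0.72 (permutation p = 0.00748, adjusted p = 0.0421) and rho = -0.62 (permutation p = 0.0372, adjusted p = 0.167), and r was -0.59 without the 2 farthest. Flox MTX replicate 4, lowest in both Nr1d2 and Dbp, was among the 2 farthest libraries in each of these pairs.

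Clock ran against Per1 and Per2 and with Cry1. Per1 and Per2 ran together with r = 0.84 (permutation p = 0.00068, adjusted p = 0.00765) and rho = 0.76 (permutation p = 0.00525, adjusted p = 0.0629), with r = 0.83 without the 2 farthest libraries. Clock ran against Per1 with r = -0.81 (permutation p = 0.00196, adjusted p = 0.0176) and rho = -0.75 (permutation p = 0.00693, adjusted p = 0.0629), and with group means removed r was -0.91 (exact permutation p = 0.00386, adjusted p = 0.0868). The direction within groups was thus the same, without passing after adjustment. Clock with Per2 (r = -0.79, permutation p = 0.00267, adjusted p = 0.02, rho = -0.51, permutation p = 0.0934, adjusted p = 0.275) and with Cry1 (r = 0.76, permutation p = 0.00511, adjusted p = 0.0328, rho = 0.73, permutation p = 0.00839, adjusted p = 0.0629) rested on few libraries: without flox MTX replicates 4 and 1, r was -0.42 and 0.42. Spearman's rho passed at an adjusted p below 0.05 in 2 of the 8 pairs, Arntl with Dbp and Arntl with Per3.

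**Figure D4:**
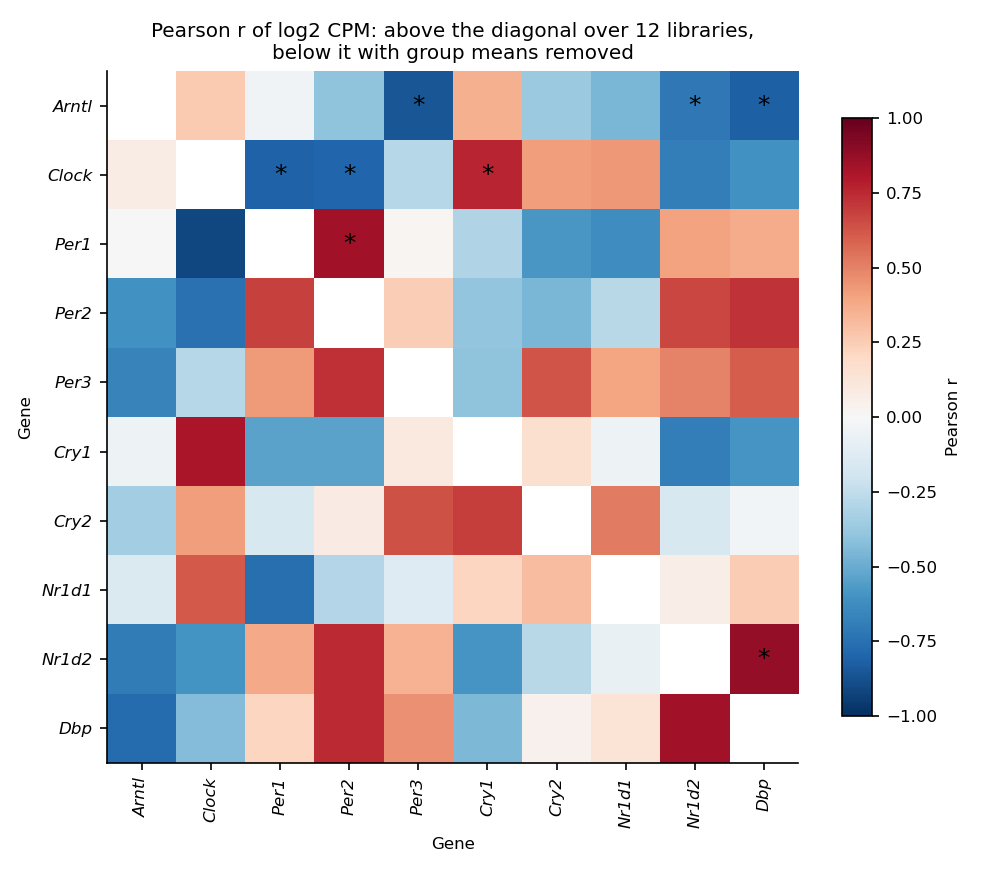
Pearson's r between the 10 members, over the 12 libraries above the diagonal (a star marks an adjusted p below 0.05) and with group means removed below it. The negative r of Arntl with Dbp, Per3 and Nr1d2 and of Clock with Per1 and Per2 are on both sides of the diagonal, and no pair below it had an adjusted p under 0.05.

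**Figure D5:**
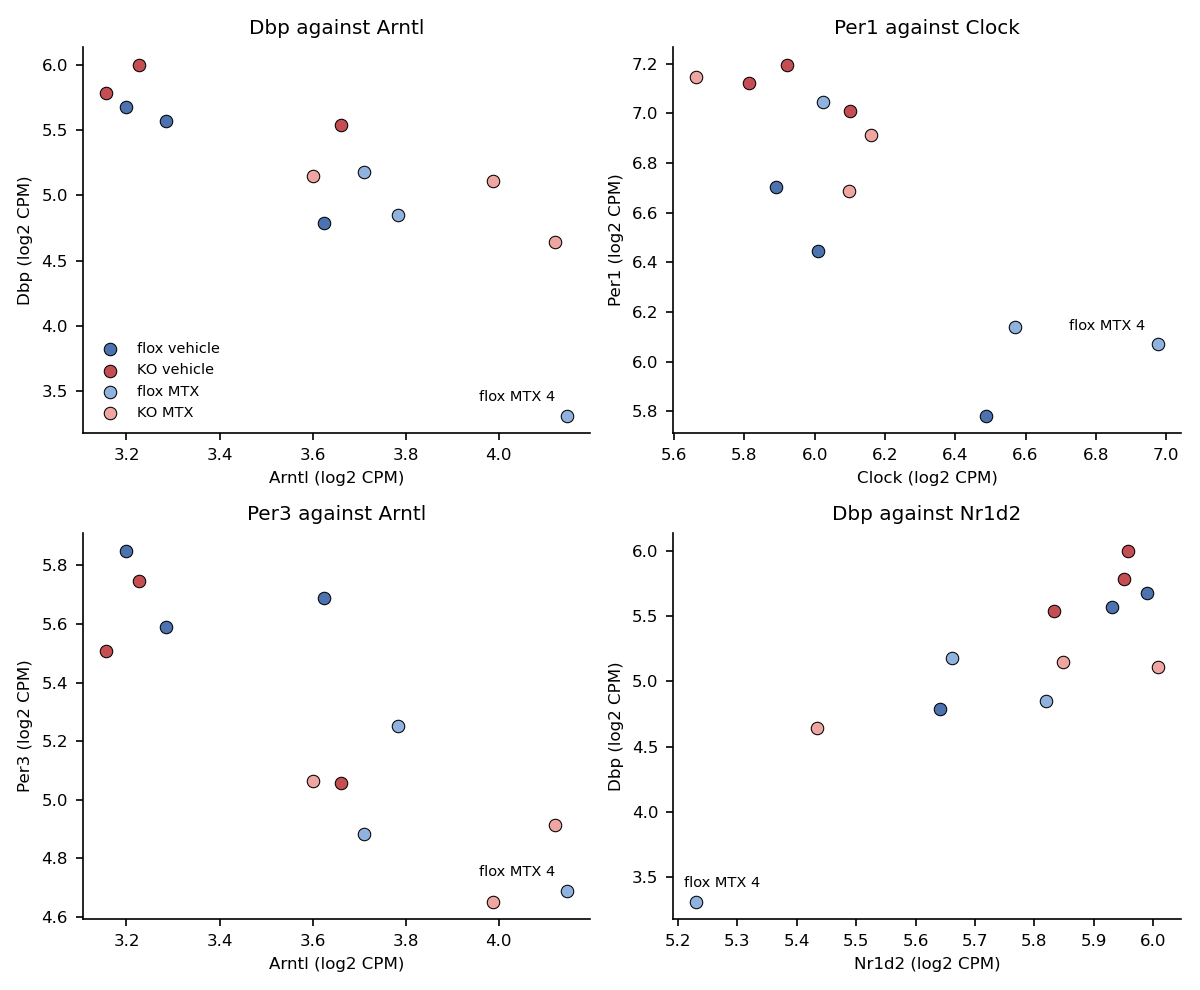
Log2 CPM of Dbp against Arntl, Per1 against Clock, Per3 against Arntl and Dbp against Nr1d2, 1 point per mouse, with groups by colour and flox MTX replicate 4 labelled. Dbp falls with rising Arntl at r = -0.82, and in the panel of Nr1d2 the labelled mouse lies far from the other 11.

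Per1, Per2, Cry2 and Clock moved with summed cell markers over the 12 libraries. Of 30 relations of a member with the summed adipocyte, macrophage or epididymis markers, 4 had an adjusted p below 0.05 in permutation tests: Cry2 with macrophage markers (r = -0.81, adjusted p = 0.0181), Per2 with macrophage markers (r = 0.80, adjusted p = 0.0181), Per1 with macrophage markers (r = 0.75, adjusted p = 0.0493) and Clock with adipocyte markers (r = 0.80, adjusted p = 0.0181). The corresponding rho were -0.87, 0.73, 0.69 and 0.76, and without the 2 farthest libraries r was -0.87, 0.77, 0.81 and 0.72. With group means removed r was -0.41, 0.70, 0.44 and 0.77, and none of the 30 had an adjusted p below 0.05, the smallest being 0.139. All 12 macrophage markers were called higher in KO than in flox mice under vehicle, against 13.9% of all tested genes. So were 7 of 8 endothelium and 6 of 6 fibroblast and progenitor markers. With MTX in flox mice, 10 of 12 macrophage markers were called higher, against 8.09%. Of 12 adipocyte markers, 3 were called lower in KO vehicle mice, against 17.8%. Under MTX all 12 were lower in KO mice (median -1.25). There edgeR called 0 of them and DESeq2 10, against 0% and 14.8% of all genes. The part of RNA from these cells in the differences of Per1, Per2, Cry2 and Clock was not tested.

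Among 15506 genes of at least 1 CPM, those most like Arntl over the 12 libraries were Dync1h1, the dynein heavy chain (r = 0.94), Dctn4 (r = 0.86), Ext2 (r = 0.85), Nup54 (r = 0.84) and Mapk1ip1l (r = 0.84). Those most like Dbp were Exoc3l2 (r = 0.96), Ager (r = 0.94), Tmem200b (r = 0.88), Grk4 (r = 0.88) and Hbegf (r = 0.88). They were ranked by r and are given as a description without a test.

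Other genes of the clock pathway, a list of 19 of which 18 were tested (all but Rorb), moved in both directions. In KO against flox mice under vehicle, 5 of 18 were called, 3 higher and 2 lower, against 31.7% of all tested genes, and 4 of them are described. Hlf (-1.65, adjusted p = 0.0142), a PAR bZIP relative of Dbp, fell, and Timeless (1.02, adjusted p = 0.00822), Nfil3 (0.82, adjusted p = 0.0529), the repressor at D-boxes, and Csnk1e (0.65, adjusted p = 0.00577), a kinase of PER proteins, rose on the log2 scale. With MTX in flox mice, 4 of 18 were called, 2 higher and 2 lower, against 24.2% of all tested genes, and 3 of them are described. Hlf (-1.70, adjusted p = 0.0209) fell, and Nfil3 (0.92, adjusted p = 0.0459) and Rora (0.71, adjusted p = 0.0361) rose. The medians of the tested genes were -0.11 and -0.04. None was called by edgeR between KO and flox mice under MTX, with MTX in KO mice or in the interaction. There edgeR had 2, 2 and 1 at an unadjusted p below 0.05, against 24.5%, 7.97% and 15% of all tested genes. DESeq2 called 1 (Timeless), 0 and 0, against 14.8%, 1.5% and 6.67% of all genes.

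Hlf was highest in flox vehicle mice. It stood at 23.2, 48.5 and 17.1 CPM in flox vehicle, 11.6, 10.1 and 6.56 in KO vehicle, 8.83, 12.9 and 5.63 in flox MTX and 7.96, 6.02 and 4.33 in KO MTX mice. Flox vehicle mice were above all others, and the other 3 groups overlapped. The part of the epididymis and testis RNA of the flox vehicle libraries in these differences was not tested. Nfil3 stood at 6.16, 5.39 and 9.51 CPM in flox vehicle, 10.98, 12.5 and 13.7 in KO vehicle, 15.1, 8.86 and 15.9 in flox MTX and 16.4, 14.0 and 22.6 in KO MTX mice, lowest in flox vehicle apart from replicate 4. Tef, the remaining PAR bZIP gene, differed with MTX in flox mice by -0.52 ± 0.15 (adjusted p = 0.0351), under the fold limit.

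Of 6 clock output genes, Usp2, a deubiquitinase with a daily rhythm in many tissues, fell in KO vehicle mice (-1.37 ± 0.32, adjusted p = 0.00919) and with MTX in flox mice (-1.31 ± 0.32, adjusted p = 0.0184). It stood at 37.4, 53.1 and 27.6 CPM in flox vehicle, 15.3, 21.0 and 9.47 in KO vehicle, 18.6, 12.5 and 16.6 in flox MTX and 8.79, 8.28 and 12.5 in KO MTX mice, again highest in flox vehicle. Por (-0.65, adjusted p = 0.0970) fell and Tspan4 (0.76, adjusted p = 0.0380) rose in KO vehicle mice, so that 3 of 6 were called there, against 31.7% of all tested genes, and 1 of 6 with MTX in flox mice, against 24.2%. None was called by edgeR between KO and flox mice under MTX, with MTX in KO mice or in the interaction. There 1, 0 and 0 had an unadjusted p below 0.05, against 24.5%, 7.97% and 15% of all tested genes. DESeq2 called 1 (Wee1), 0 and 0, against 14.8%, 1.5% and 6.67% of all genes.

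Because Per1 and Per2 also answer to glucocorticoids and Per2 to heat, lists for both signals were read beside them. Of 10 glucocorticoid targets, 6 were called in KO against flox mice under vehicle, all higher, against 31.7% of all tested genes called and 13.9% called higher. They were Dusp1 (2.32, adjusted p = 0.0043), Tsc22d3 (1.42, adjusted p = 0.0034), Mt2 (1.19, adjusted p = 0.0816), Mt1 (0.90, adjusted p = 0.0964), Klf9 (0.86, adjusted p = 0.00689) and Cdkn1a (0.85, adjusted p = 0.0906). Fkbp5, a target common to most cell types, differed by 0.01 ± 0.31 (adjusted p = 0.988). With MTX in flox mice, 4 rose, against 24.2% of all tested genes called and 8.09% called higher. They were Pdk4 (1.57, adjusted p = 0.0550), Tsc22d3 (1.33, adjusted p = 0.00618), Dusp1 (1.10, adjusted p = 0.0877) and Klf9 (0.60, adjusted p = 0.0468). The medians were 0.88 and 0.84, against -0.06 and 0.05 for all genes tested, and in that MTX comparison Per1 differed by 0.13 ± 0.28 (adjusted p = 0.774). Both comparisons rest on the flox vehicle libraries. In them, 12 of 12 and 10 of 12 macrophage markers were called higher and 10 of 10 germ cell markers of testis were called lower in both, and the part of these cells in the list's values was not tested.

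Of 10 genes of the heat and cold responses, 4 were called in each of those comparisons, against 31.7% and 24.2% of all tested genes. In KO vehicle mice, Hspa1b (-1.16, adjusted p = 0.0437), Cirbp (-1.09, adjusted p = 0.0187) and Dnajb1 (-0.75, adjusted p = 0.0617) fell and Hspa8 (0.63, adjusted p = 0.0362) rose. With MTX in flox mice, Hspa1b (-1.54, adjusted p = 0.0218), Hspa1a (-1.52, adjusted p = 0.0505) and Cirbp (-0.99, adjusted p = 0.0396) fell and Hsph1 (0.62, adjusted p = 0.0701) rose. Cirbp, a cold-inducible RNA-binding protein, is known to sustain the amplitude of the clock, whereas Hspa1a and Hspa1b are near-identical copies whose reads can be split between them. Neither list had a gene called by edgeR between KO and flox mice under MTX, with MTX in KO mice or in the interaction. At an unadjusted p below 0.05 these had 3, 0 and 2 glucocorticoid targets and 0, 1 and 2 heat or cold genes. The shares of all tested genes were 24.5%, 7.97% and 15%. DESeq2 called 1 (Dusp1), 0 and 2 (Tsc22d3 and Klf9) glucocorticoid targets and 0, 0 and 1 (Hspa1b) heat or cold genes. It called 14.8%, 1.5% and 6.67% of all genes.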

How the data were processed

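RNA from eWAT of 12 mice was sequenced, 1 library per mouse. The authors trimmed the reads (Trimmomatic 0.36 in the submitters' processing notes), aligned them to GRCm38 (STAR 2.5.2b) and counted them on Ensembl genes (featureCounts of Subread 1.5.2), and deposited whole-number counts that carry no normalization. Ribosomal RNA was depleted according to the methods, whereas the labels name polyA RNA, and the strand setting is not given in the sources used here. No pair of libraries of a group was a duplicate.

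Groups were taken from the labels. Counts were fitted in 1 model with 1 coefficient per group in R 4.3.3 with edgeR 4.0.16 (TMM, filterByExpr, glmQLFit, 8 residual degrees of freedom, common dispersion 0.100), with Benjamini-Hochberg adjustment over 18702 genes. Log2 CPM for correlations used a prior count of 2, with scipy 1.17.1. Other settings tried were RLE factors, DESeq2 1.42.0, scaling by library size, no filter, a minimum of 10 counts per library, the replicate block, the 6 libraries of a comparison, other limits for a call, and each library left out. The steps were tested on simulated data. Same-numbered mice had a median residual correlation of 0.035 over 12 pairs (-0.27 to 0.25), against 0.011 over 42 other pairs (-0.38 to 0.45). No pairing by number was seen, and mice were treated as unpaired. So few pairs with so wide a spread cannot exclude that same-numbered mice shared a litter or cage.

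The members, the lists and the tests were chosen with earlier results of these data known. All 10 members are named, with the called genes of the other lists in a comparison of 2 groups (up to 6 per list, apart from 1 gene that is not reported here) and the 5 genes most like Arntl and Dbp. Fkbp5, Tef, Crisp1 and Prm1 were named after their values were seen. Coordinates of genes and UTRs are those of GENCODE M21 on GRCm38.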

Additional observations from a re-analysis of the deposited data

How the results depend on the processing

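Direction was kept in all 148 values of called members under the alternatives. Among all 1300 values of members, 81 changed sign, 28 lost a call and 14 gained one. Counts of called members that changed under an alternative were as follows. KO against flox under vehicle had 3, with library size only or an adjusted p below 0.05 it had 2 (Per2 and Cry2), and with each library left out 1 to 3 (1, Per2, without KO vehicle replicate 3). KO against flox under MTX had 0, with DESeq2 1, and with each library left out 0 to 3 (3 without flox MTX replicate 2). MTX in flox mice had 1, with library size only 2 (Per3 and Cry2), and with each library left out 1 to 2. The count was 0 under every alternative for MTX in KO mice and for the interaction. The MTX effect averaged over genotypes, added after the values were seen, had 2. It had 1 with a minimum of 10 counts per library, 1 with an adjusted p below 0.05, 3 without the fold limit and 0 to 3 with each library left out (0 without KO vehicle replicate 2). The averaged KO effect, added likewise, had 2. It had 1 with DESeq2, 1 with RLE factors, 1 with that minimum, 4 without the fold limit and 1 to 3 with each library left out. With the replicate number as a block, the averaged effects had 1 each, KO against flox under vehicle had 2 (Per2 and Cry2), MTX in flox mice had 1, and the other counts were 0. The correlation of Arntl with Dbp was -0.61 with library size only (adjusted p = 0.0930), -0.77 with group means removed, -0.80 with group means removed and without flox MTX replicate 4 (adjusted p = 0.156), and -0.86 to -0.79 with each library left out.

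Each member had at least 153 counts in every library, and the effect of depth was not tested. Limits of the design include 3 mice per group, the unknown hour of collection, and differences in cell markers between the groups. The cause of the lost calls was not tested.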

Other observations

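The effects averaged over the other factor, added after the values of the groups were seen, gave calls among the other lists. For MTX averaged over both genotypes, 2 of 18 other clock genes and 1 of 6 clock output genes were called. So were 1 of 10 glucocorticoid targets and 3 of 10 heat and cold genes, against 14.5% of all tested genes. In that average, edgeR's test called Hlf (-1.16 on the log2 scale, adjusted p = 0.0352) and Usp2 (-0.97, adjusted p = 0.0249), which fell, and Nfil3 (0.72, adjusted p = 0.0472) and Tsc22d3 (0.74, adjusted p = 0.0224), which rose. Of the heat and cold genes, Hspa1b (-0.75, adjusted p = 0.0991) and Cirbp (-0.61, adjusted p = 0.0834) fell and Hsph1 (0.60, adjusted p = 0.0345) rose. Hlf, which like Dbp binds D-boxes, and Nfil3, which represses there, moved in opposite directions in this average. Neither was called with MTX in KO mice, Hlf was highest in flox vehicle mice, and an effect at D-boxes was not tested.

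For KO averaged over both treatments, 6 of 18 other clock genes and 2 of 6 clock output genes were called. The same held for 3 of 10 glucocorticoid targets and 1 of 10 heat and cold genes, against 28.5% of all tested genes. Those described here that fell were Hlf (-1.12, adjusted p = 0.0165), Usp2 (-1.03, adjusted p = 0.00703) and Cirbp (-0.71, adjusted p = 0.0252). Those that rose were Dusp1 (1.70, adjusted p = 0.00297), Timeless (0.87, adjusted p = 0.00377), Tsc22d3 (0.82, adjusted p = 0.00495), Sgk1 (0.74, adjusted p = 0.0565), Npas2 (0.72, adjusted p = 0.0626), the paralog of Clock, Ciart (0.71, adjusted p = 0.0719), a repressor of the activator pair, Noct (0.62, adjusted p = 0.0650) and Nfil3 (0.61, adjusted p = 0.0385). Both averages hold the flox vehicle libraries with epididymis and testis markers.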
